A study of Mus musculus with 8 samples.

Results

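The miRNAs described here are mmu-miR-103, mmu-miR-107, mmu-miR-378 and mmu-miR-33, which were taken by name from the 567 mouse miRNAs on the array because each is known to be made from a host gene of metabolism. All 4 of them were called detected on 8 of 8 arrays, and they are 4 of the 133 miRNAs that were tested. They were measured in whole liver of a mouse model of fibrosis, in which adult male C57BL/6J mice, 8 weeks old, received the liver toxin CCL4 (carbon tetrachloride) in olive oil by intraperitoneal injection. Injections were given 2 times a week for 4 weeks and weekly after that, and control mice were given olive oil alone, so that both groups shared the injections and the oil. The treated samples were 5 CCL4 arrays, 1 of them from 4 weeks and 2 each from 6 and 8 weeks, and the control samples were 1 olive oil array at each of these weeks. The sample labels name the treatment and the week, and not the degree of fibrosis. Whether the RNA on an array was from a lone mouse or pooled mice is not stated, so n is a number of arrays, and p-values measure only the spread between these arrays.

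A miRNA binds mRNAs mainly through its seed, bases 2 to 8 from its 5′ end, and lowers their translation or stability. miR-103 and miR-107 are processed from introns of the pantothenate kinase genes, whose enzymes start the synthesis of coenzyme A, and are known for reducing insulin sensitivity in liver and fat. miR-378 and its star strand come from Ppargc1b, which encodes a coactivator of mitochondrial and lipid genes, and miR-33 comes from Srebf2, which encodes the transcription factor that switches on cholesterol synthesis, and represses the cholesterol exporter ABCA1.

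The mature sequences below, from RefSeq on GRCm38.p6, are shown because miR-103 and miR-107 are nearly the same molecule while miR-33 has a seed of its own, and capitals mark the seed.
miR-103: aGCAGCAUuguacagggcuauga
miR-107: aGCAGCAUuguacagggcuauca
miR-33: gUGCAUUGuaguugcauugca
Over the 23 bases compared, miR-103 and miR-107 differed by 1 base, G22C, with the base of miR-103 first and positions counted from the 5′ end. The seeds of these 2 miRNAs were the same, and a probe for either can in principle bind both, so that their signals may be partly shared. The sequence of miR-103 lies at 2 places, chr11:35782447-35782469 on the plus strand inside Pank3 and chr2:131288103-131288125 on the plus strand inside Pank2, and the array cannot tell which of them a molecule came from. miR-107 lies at chr19:34820700-34820722 on the minus strand inside Pank1. miR-33 lies at chr15:82198127-82198147 on the plus strand inside Srebf2.

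The letters AGCAGC, which begin at base 1 of miR-103 and miR-107, begin at base 2 in miRNAs of the miR-15/16 family, and these relatives are shown with AGCAGC in capitals.
miR-103: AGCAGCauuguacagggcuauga
miR-107: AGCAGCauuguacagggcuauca
miR-15a: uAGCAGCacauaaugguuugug
miR-15b: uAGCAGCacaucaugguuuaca
miR-16: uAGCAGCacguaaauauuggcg
miR-322: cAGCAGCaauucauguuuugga
miR-503: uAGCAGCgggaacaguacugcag
The shift by 1 base places the seed of miR-103 and miR-107 out of register with that of the relatives, which also include miR-195 and miR-497.

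The level of a miRNA was its gene signal, the background-subtracted brightness of its probes summed by the scanner's software, and the scaled level was log2 of that signal divided by the 75th percentile of the array. There was 1 slide and 1 scan for the 8 arrays. The number of detected miRNAs ranged from 117 to 158, and the CCL4 array of 4 weeks, with 158, stood apart because its lowest detected signal was 0.139, against 5.59 to 8.16 on the other arrays. The 75th percentile itself was higher on every CCL4 array (6.53 to 11.0) than on any olive oil array (4.71 to 6.48). For that reason the results of the 4 miRNAs are given with and without scaling. The hepatocyte markers miR-122, miR-192 and miR-194 were present, and their summed scaled signal was 2328 to 4120 on CCL4 arrays and 5260 to 5882 on olive oil arrays, with 3 of 3 lower in the limma test, which called 35.3% of all 133 tested miRNAs lower and 13.5% higher. Unscaled, the same sum was 21270 to 40742 with CCL4 and 27682 to 34103 with olive oil, which overlapped. Of the 5 mesenchymal markers 3 were higher, with a summed scaled signal of 14.2 to 23.1 against 10.2 to 12.2 and an unscaled one of 92.7 to 240.8 against 47.8 to 79.1, and miR-145 was detected on no array. Neither the 3 tested leukocyte markers (44.3 to 139 against 58.5 to 95.6, with miR-150 never detected) nor the 3 erythroid markers (378 to 961 against 537 to 1225) passed the test in any direction, and the 2 endothelial markers (136 to 205 against 213 to 225) did not either. The endothelial sums did not overlap when scaled, but unscaled they did, at 888 to 2034 against 1060 to 1422. The bile duct markers summed to 4.75 to 7.34 against 4.64 to 4.91, with 1 of 2 tested higher and miR-200c, miR-141 and miR-429 never detected. The part of these cell types in the results for the 4 miRNAs was not tested.

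On the scaled values, miR-103 and miR-107 were lower in CCL4 liver over all weeks, to 0.679-fold and 0.632-fold of olive oil, whereas without scaling their log2 differences were 0.11 and 0.01. miR-378 had a scaled log2 difference of -0.33 and did not pass the test. miR-33 had the signal least far above background, and its scaled log2 difference was 0.16, which did not pass the test. Its unscaled signal was higher on all 5 CCL4 arrays than on any olive oil array, as it was for 14.3% of the 133 miRNAs tested. Without scaling limma called 33.8% of the 133 higher and 0% lower. Among all 133 miRNAs tested, 35.3% were called lower and 13.5% higher over all weeks on the scaled values, and the 2 of 4 called lower are to be read against that background. In whole liver, fewer cells of a type and less RNA per cell cannot be told apart.

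**Figure D1:**
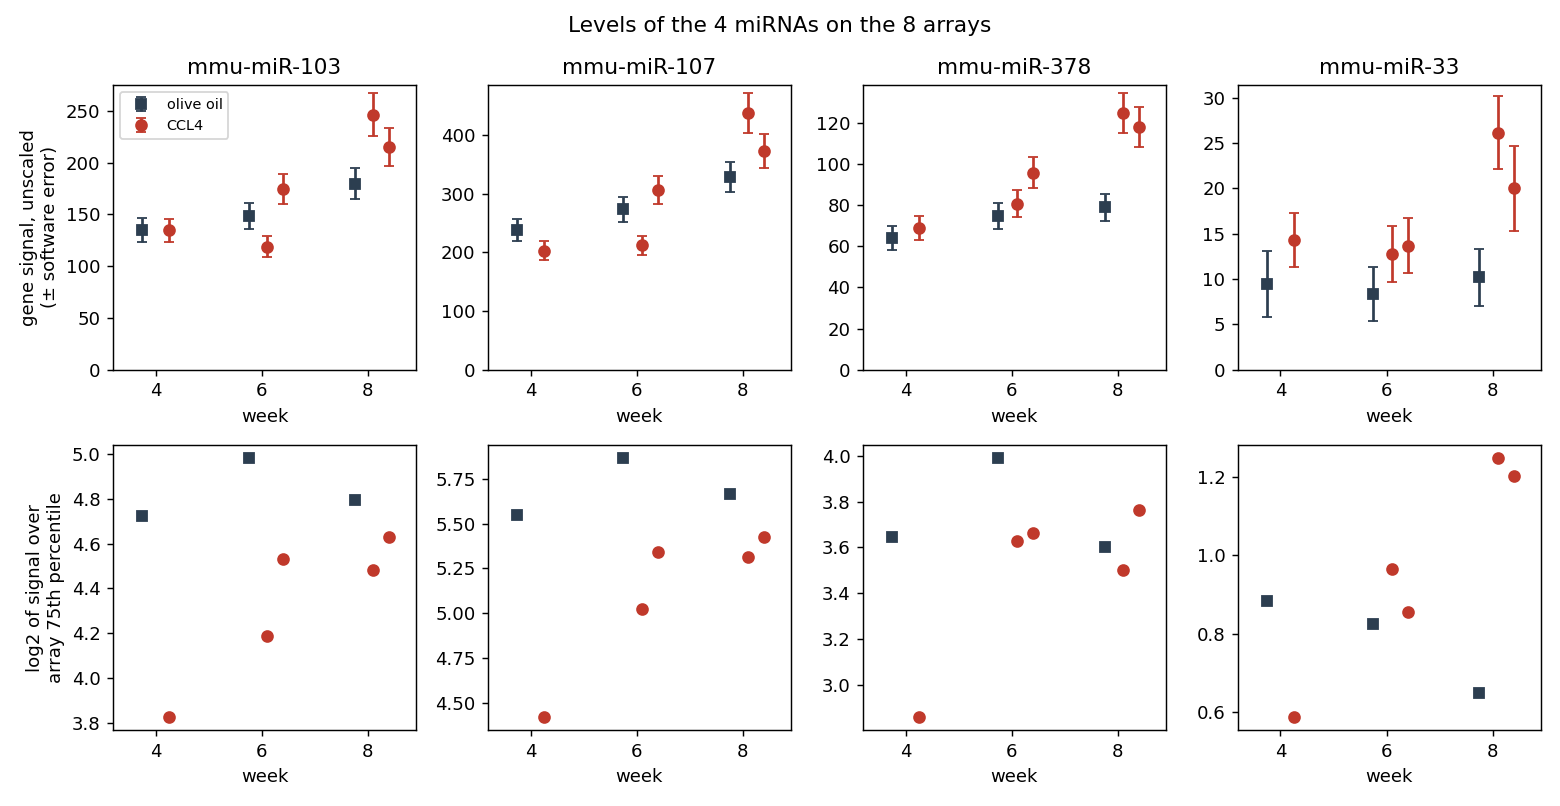
Levels of miR-103, miR-107, miR-378 and miR-33 on the 8 arrays by week, with olive oil as dark squares and CCL4 as red circles. The upper panels give the unscaled gene signal with the software's error as bars, and the lower panels give log2 of the signal over the array's 75th percentile, on axes that do not start at 0. Scaled miR-103 and miR-107 lie lower on all 5 CCL4 arrays while their unscaled signals overlap, and unscaled miR-33 lies between 12.7 and 26.1 on CCL4 arrays and between 8.34 and 10.2 on olive oil arrays. Of the 133 miRNAs tested, 43.6% lie lower in this way when scaled and 14.3% lie higher when unscaled.

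With CCL4 the unscaled signal of miR-103 was 134.5 at 4 weeks, 119 and 175 on the pair of 6 weeks, and 246 and 215 on the pair of 8 weeks. On the olive oil arrays it was 135, 149 and 179.8 in order of week. These unscaled groups overlapped throughout, the arrays of 8 weeks being the brightest of each group. After scaling, the log2 level of miR-103 with CCL4 was 3.82, then 4.19 and 4.53, then 4.48 and 4.63 in the same order. With olive oil it was 4.72, 4.98 and 4.79. Every scaled CCL4 value lay below every olive oil value, as it did for 43.6% of the miRNAs tested, against 9.02% with the opposite order.

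The mean scaled log2 level of miR-103 was 4.33 ± 0.33 (SD, n = 5) with CCL4 and 4.83 ± 0.13 (SD, n = 3) with olive oil. In limma with week as a factor the scaled difference was -0.56 (SE 0.170, 95% interval -0.93 to -0.18, adjusted p = 0.0232), and it turned to 0.11 without scaling. Scaled miR-103 was lower than the olive oil array of the week on 5 of 5 CCL4 arrays, as 51.9% of the miRNAs tested were. The exact two-sided permutation test of the scaled levels, over 56 splits, gave p = 0.0357, the smallest it can give, and 0.643 without scaling. Any miRNA without overlap between the groups reaches that smallest p. On the scaled values these were 43.6% of the 133 tested miRNAs, lying lower, and 9.02%, lying higher, so it restates the separation. Leaving out either array of 4 weeks gave -0.43 (adjusted p = 0.134), and -0.52 was left without the control array of 6 weeks (adjusted p = 0.12).

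For miR-107 with CCL4, the unscaled signal was 203 at 4 weeks, 212 and 306 on the pair of 6 weeks, and 438 and 373 on the pair of 8 weeks. The olive oil arrays read 239, 274 and 329 at 4, 6 and 8 weeks. The groups overlapped here too, and the CCL4 arrays of 8 weeks were again the brightest. Scaled log2 levels of miR-107 with CCL4 were 4.42, then 5.02 and 5.34, then 5.31 and 5.42 in that order. They were 5.55, 5.86 and 5.66 with olive oil. Like miR-103, scaled miR-107 showed no overlap between CCL4 and olive oil, as 43.6% of the miRNAs tested did in this direction.

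Scaled miR-107 averaged 5.10 ± 0.41 (SD, n = 5) with CCL4 and 5.69 ± 0.16 (SD, n = 3) with olive oil. The limma difference over all weeks was -0.66 (SE 0.178, 95% interval -1.06 to -0.27, adjusted p = 0.0201), lower on 5 of 5 CCL4 arrays, as 51.9% of the miRNAs tested were, and without scaling it was 0.01 with the opposite sign. The exact permutation p was 0.0357 with scaling, as for every miRNA without overlap (43.6% lower and 9.02% higher), and 0.857 without. Without either array of 4 weeks the difference was -0.49 (adjusted p = 0.110), and without the control array of 6 weeks it was -0.65 (adjusted p = 0.0854).

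miR-378 had unscaled signals with CCL4 of 68.8 at 4 weeks, 80.7 and 95.7 on the pair of 6 weeks, and 125 and 118 on that of 8 weeks. With olive oil they were 63.9, 74.7 and 78.8. In each week the unscaled CCL4 values lay above that of olive oil, and across weeks the groups overlapped. The unscaled log2 differences were 0.11, 0.23 and 0.62 at 4, 6 and 8 weeks. Unscaled signals were higher with CCL4 in general, the median difference of the 113 miRNAs detected on all arrays being 0.33, 0.13 and 0.46. The scaled log2 level with CCL4 was 2.86, then 3.63 and 3.66, then 3.50 and 3.76, against 3.64, 3.99 and 3.60 with olive oil. On this scale the CCL4 array of 4 weeks was far below the rest and the others overlapped with olive oil.

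Over all weeks the scaled means of miR-378 were 3.48 ± 0.36 (SD, n = 5) and 3.75 ± 0.21 (SD, n = 3). The limma difference of -0.33 (SE 0.174, 95% interval -0.71 to 0.05) did not pass the test (adjusted p = 0.124), with 4 of 5 CCL4 arrays below the olive oil array of the week, and it was 0.34 without scaling. The difference was -0.53 without the control array of 8 weeks (adjusted p = 0.0423) and -0.16 without either array of 4 weeks. The exact permutation p of miR-378 was 0.357 with scaling and 0.143 without.

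The star strand miR-378*, the other arm of the same hairpin, was also detected on 8 of 8 arrays, with unscaled signals of 10.6, 13.9, 19.9, 20.8 and 22.4 with CCL4 in order of week and 13.0, 15.1 and 17.9 with olive oil. Its scaled log2 level averaged 0.99 ± 0.50 (SD, n = 5) with CCL4 and 1.50 ± 0.17 (SD, n = 3) with olive oil. The scaled difference of miR-378* was -0.60 (SE 0.196, adjusted p = 0.0269). Scaled miR-378* was below the control array of the week for 5 of 5 CCL4 arrays, as 51.9% of the miRNAs tested were. Its unscaled ratio of CCL4 to olive oil was 0.816, 1.12 and 1.21 in order of week. The exact permutation p of its scaled levels was 0.107. Leaving out either array of 4 weeks gave -0.38 (adjusted p = 0.179), and the call was also lost without the CCL4 array of replicate 1 of 6 weeks (adjusted p = 0.0740) and without the control array of 6 weeks (adjusted p = 0.0854). A difference between miR-378 and its star strand was not tested. Star strands of miR-103 and miR-107 were not read here, and miR-33* was detected on 0 of 8 arrays with signals at or below background on every one.

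miR-33 gave unscaled signals with CCL4 of 14.3 at 4 weeks, 12.7 and 13.7 on the pair of 6 weeks, and 26.1 and 20.0 on that of 8 weeks. With olive oil the signals were 9.43, 8.34 and 10.2. All 5 CCL4 signals lay above all 3 olive oil signals, a separation that 14.3% of the tested miRNAs showed in that direction, and both CCL4 arrays of 8 weeks were the brightest. Scaled log2 levels of miR-33 with CCL4 were 0.59, then 0.96 and 0.86, then 1.25 and 1.20, against 0.88, 0.83 and 0.65 with olive oil. Scaled values overlapped between the groups, the CCL4 array of 4 weeks being the lowest of all 8.

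The scaled means of miR-33 were 0.97 ± 0.27 (SD, n = 5) and 0.79 ± 0.12 (SD, n = 3). Over all weeks the scaled difference was 0.16 (SE 0.174, 95% interval -0.23 to 0.54, adjusted p = 0.470), with 4 of 5 CCL4 arrays above the olive oil array of the week, and without the olive oil array of 8 weeks it was -0.08. Without scaling the limma difference of miR-33 was 0.83 (adjusted p = 0.00240), in a comparison that called 33.8% of all tested miRNAs higher and 0% lower, with 54 higher and 0 lower at an unadjusted p under 0.05. The exact permutation p was 0.0357 without scaling and 0.321 with it. The 14.3% of tested miRNAs with every unscaled CCL4 signal above every olive oil signal all reach that unscaled p.

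The signal of miR-33 rested on 1 of its 2 probes. The probe matching 20 bases had no spot well above background on any array, with mean spot signals of -0.83 to 4.72. The probe matching 21 bases had at least 1 of its 10 spots well above background on 8 arrays, and all 10 on 2 of them, with mean spot signals of 12.5 to 31.6. On olive oil arrays 2, 1 and 7 of its 10 spots were well above background at 4, 6 and 8 weeks, against 7 to 10 on CCL4 arrays. The software's error of the miR-33 signal was 15.3% to 24.3% with CCL4 and 31.3% to 38.2% with olive oil.

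Both probes of the other 3 miRNAs moved alike. For miR-103 the scaled log2 differences of the probes at 4 weeks were -1.01 and -0.99, and at 8 weeks -0.29 and -0.32. For miR-107 they were -1.19 and -1.41 at 4 weeks and -0.38 and -0.32 at 8 weeks. For miR-378 they were -0.86 and -0.87 at 4 weeks and within 0.01 of 0 at 8 weeks. Both probes were scaled like the gene signals, so their signs depend on the scaling in the same way.

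Taken week by week on the scaled values, all 4 miRNAs had their lowest difference at 4 weeks and their highest at 8 weeks, as the median of the 113 miRNAs detected on all arrays did, at -0.56, -0.45 and -0.14. miR-103 was lower at 4 weeks (log2 difference -0.90, SE 0.328, adjusted p = 0.0179), and its differences of -0.62 at 6 weeks (adjusted p = 0.124) and -0.24 at 8 weeks (adjusted p = 0.758) did not pass the test. Without scaling its ratio of means was 0.995, 0.988 and 1.28. miR-107 was lower at 4 weeks by a scaled log2 difference of -1.13 (adjusted p = 0.00377), with -0.68 (adjusted p = 0.103) and -0.30 (adjusted p = 0.702) at 6 and 8 weeks, and its unscaled ratio was 0.851, 0.945 and 1.23. Both unscaled ratios were above 1 only at 8 weeks, with log2 differences of 0.36 for miR-103 and 0.30 for miR-107. The median unscaled log2 difference of the 113 miRNAs was higher than both at that week, at 0.46, and was 0.33 and 0.13 at 4 and 6 weeks.

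miR-378 was lower at 4 weeks on the scaled values (-0.79, adjusted p = 0.0399), where its unscaled ratio was 1.08, so that the direction turned with the scaling. At 6 and 8 weeks its scaled differences were -0.34 (adjusted p = 0.310) and 0.03 (adjusted p = 0.962), and its unscaled ratios 1.18 and 1.54. miR-378* was lower at 4 weeks, by -1.19 (adjusted p = 0.00219). The differences of miR-33 were -0.30 (adjusted p = 0.454), 0.08 (adjusted p = 0.810) and 0.58 (adjusted p = 0.290) on the scaled values, and its unscaled ratio was 1.51, 1.58 and 2.27.

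At 4 weeks 33.1% of all miRNAs were called lower and 12% higher, against 3.01% and 6.02% at 6 weeks and 0.752% and 6.02% at 8 weeks, so that 3 of 4 called lower at 4 weeks stood beside a high background. The 4-week comparison set 1 array against 1, and its spread came from the 2 pairs of CCL4 arrays at 6 and 8 weeks. In these fits limma gave every miRNA the same SE, 0.328 at 4 weeks and 0.284 at 6 and 8 weeks. The p-values of single weeks and of the interaction thus rest on a spread pooled over all miRNAs, not on that of each miRNA. Leaving out either CCL4 array of 8 weeks ended the call of miR-103 at 4 weeks (adjusted p = 0.0752) and that of miR-378 (adjusted p = 0.123). The call of miR-378 also ended with the percentile over miRNAs detected on all arrays (-0.57, adjusted p = 0.133), and without the filter on detection all 3 calls at 4 weeks ended (adjusted p = 0.310 for miR-103, 0.239 for miR-107 and 0.261 for miR-378). Without replicate 2 of the CCL4 arrays of 6 weeks, miR-103 (-0.79, adjusted p = 0.00451) and miR-107 (-0.84, adjusted p = 0.00279) passed at 6 weeks, and without either of that pair miR-33 passed at 8 weeks (0.58, adjusted p = 0.0293). A change of the treatment difference between weeks, tested by the interaction of treatment and week, passed for none of the 4, with adjusted p of 0.734 for miR-103, 0.592 for miR-107, 0.596 for miR-378 and 0.540 for miR-33, against 6.02% of all miRNAs.

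Because the scaling moved every miRNA of an array by the same amount, the place of a difference among those of the other miRNAs does not depend on it. The median scaled difference of the 113 miRNAs detected on all arrays was -0.36 over all weeks. Against that median, miR-103 was lower by -0.20 and miR-107 by -0.31, and 27 of the 113 had a lower difference than miR-103 and 7 a lower one than miR-107. miR-378 lay at the median, 0.03 above it, with 59 of the 113 lower. miR-33 lay 0.52 above the median, with 94 of the 113 lower and 18 higher, and at 8 weeks it lay 0.71 above, with 101 lower. miR-378* was at -0.25 against the median.

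The same signals can also be given as levels against each array's own median of these 113 miRNAs, which is not a separate measurement. miR-107 lay 0.68 to 1.47 log2 units above the array median with CCL4 and 1.69 to 2.06 with olive oil, and miR-103 lay 0.09 to 0.68 above with CCL4 and 0.87 to 1.17 with olive oil. Neither miRNA's groups overlapped. The share of all miRNAs without overlap was not computed for this measure, and on the scaled values 43.6% of those tested lay lower without overlap. For miR-378 the ranges were -0.88 to 0.00 and -0.22 to 0.18, and for miR-33 they were -3.15 to -2.63 and -3.15 to -2.97, both with overlap.

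Differences between pairs of the 4 miRNAs on the same array do not depend on the scaling either. They were compared as changes, each CCL4 array against the matching control array. In each pair the miRNA with the higher scaled difference over all weeks was put first, so a positive mean change was set by that order. The difference miR-33 minus miR-107 was larger on all 5 CCL4 arrays, by 0.55 to 0.98 log2 units, with means of 0.83, 0.77 and 0.87 at 4, 6 and 8 weeks. The difference miR-33 minus miR-103 was larger by 0.48 to 0.93. CCL4 and olive oil did not overlap for either pair, as was the case for 35.4% of the 6328 pairs of miRNAs detected on all arrays.

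miR-378 also gained against both Pank miRNAs, by 0.20 to 0.48 against miR-107 and by 0.11 to 0.43 against miR-103, again without overlap. miR-33 gained 0.35 to 0.70 against miR-378, where the groups overlapped. The smallest change was that of miR-103 against miR-107, by 0.04 to 0.23 with overlap, and its largest value was that of the CCL4 array of 4 weeks. These pairs share arrays and members, and they show unequal change, not which of the miRNAs of a pair changed.

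**Figure D2:**
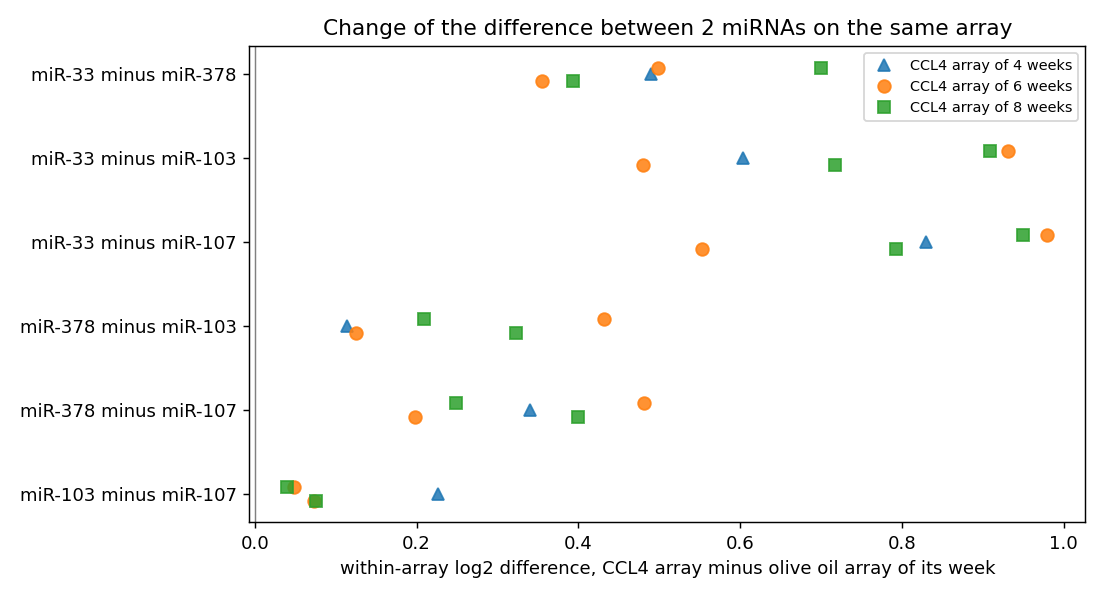
Change of the log2 difference between 2 of the miRNAs on the same array, each point being a CCL4 array minus the olive oil array of its week, with 4, 6 and 8 weeks as triangles, circles and squares. All points lie above 0, from 0.04 for miR-103 minus miR-107 to 0.98 for miR-33 minus miR-107. Each pair puts first the miRNA with the higher scaled difference over all weeks, so a mean above 0 was set by that order. How many of all pairs change in the same direction on every CCL4 array was not computed.

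The miRNAs whose pattern was most like each of the 4 were those with the smallest SD, over the 8 arrays, of the within-array log2 difference, among 112 others detected on all arrays. For miR-103 they were miR-30a (SD 0.0568), miR-22* (0.0595) and let-7g (0.0628), and miR-107 came at place 12 (0.0891). For miR-107 they were miR-192 (0.0575), miR-203 (0.0601) and let-7b (0.0659), with miR-103 at place 7. Both thus had closer neighbours than each other, although their SD was well under the medians over all candidates, 0.242 and 0.312.

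miR-378 was most like miR-30e* (0.106), miR-185 (0.131) and miR-30a* (0.147), against a median of 0.319. miR-33 had no neighbour as close, the nearest being miR-15b (0.173), miR-130a (0.214) and let-7i (0.230), against a median of 0.380. The arrays share their treatment groups, and the higher error of miR-33 enters its SD.

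Of the 7 miRNAs with AGCAGC from base 2, 6 were tested, with 1 never detected, with 1 higher and 2 lower (13.5% and 35.3% over all 133), and their median scaled difference was 0.11, against -0.32 over all 133. miR-15a (-0.51, adjusted p = 0.0232) and miR-16 (-0.41, adjusted p = 0.0442) were lower on the scaled values. miR-497 was higher (0.48, adjusted p = 0.0422). On the scaled values the shared letters thus went with differences of both signs. Without scaling limma called 0% of all 133 lower, so these signs depend on the scaling.

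Among 15 miRNAs listed for lipid and cholesterol metabolism in liver, 11 were tested, with 2 higher, 4 lower and a median of -0.36, near the 13.5% higher, 35.3% lower and median of -0.32 of all 133. The higher ones were miR-34a (1.13, adjusted p = 5.235e-04), which represses the deacetylase SIRT1, and miR-96 (0.62, adjusted p = 0.0232). miR-96 was detected on only 6 of 8 arrays, with a lowest signal of 5.09. The lower ones on the scaled values were miR-122 (-0.78, adjusted p = 0.0118), the main miRNA of hepatocytes, miR-30c (-0.56, adjusted p = 0.0232), miR-148a (-0.58, adjusted p = 0.0232), which represses the LDL receptor, and miR-185 (-0.46, adjusted p = 0.0311).

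Among 8 miRNAs listed for insulin and glucose, 6 were tested, with 1 higher, 3 lower and a median of -0.50, beside the same 13.5%, 35.3% and -0.32 of all 133. miR-802, which is raised in obese liver and impairs glucose tolerance, was higher (0.68, adjusted p = 0.0232). miR-29a (-0.68, adjusted p = 0.0135), miR-29b (-0.60, adjusted p = 0.0209) and miR-29c (-0.89, adjusted p = 0.0135), which share a seed and repress collagens, were lower on the scaled values. No miRNA of any list was called lower over all weeks without scaling, where limma called 0 of 133 lower, also at an unadjusted p under 0.05.

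The scalings moved the differences of all miRNAs, and those of the 4 with them. The median difference of the 113 miRNAs was -0.36, and it moved to -0.16 with the percentile taken over these 113 alone, to -0.08 after quantile normalization, to 0.09 with the normexp background correction and to 0.31 without scaling. Over these settings miR-103 ranged from -0.56 to 0.11 and miR-107 from -0.66 to 0.01, while miR-33 ranged from 0.09 to 0.83. In all of them miR-103 and miR-107 lay below the median of the 113, and miR-33 lay above it in all but normexp, where it was at the median.

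**Figure D3:**
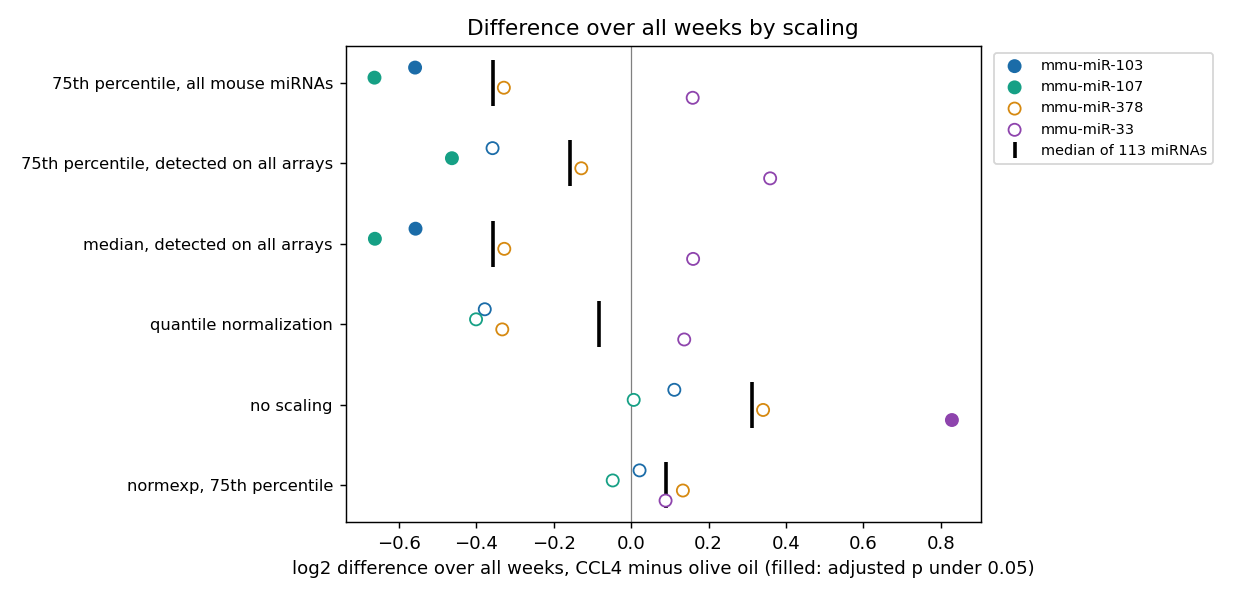
CCL4 minus olive oil on the log2 scale over all weeks for the 4 miRNAs under 6 scalings, filled where the adjusted p of limma was under 0.05, with the median of the 113 miRNAs detected on all arrays as a vertical mark. miR-103 and miR-107 are below 0 with the first 4 scalings and at 0.11 and 0.01 without scaling, where miR-33 alone of the 4 passes the test at 0.83.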

How the data were processed

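Mouse liver RNA was measured on 8 single-colour Agilent arrays. Per the file headers, the authors' intensity values were made with Feature Extraction 10.5.1.1, which corrects spots for background and totals the probes of a miRNA, without scaling between arrays. The deposited processed table held log2 of the same signals, with those under 1 set to 1, and served as an alternative. After the study's methods, each array was scaled to the 75th percentile over its 567 mouse miRNAs, with a floor of 0.01 set after the division, whereas the methods set it first (an alternative here). The 133 miRNAs detected on at least 3 of 8 arrays were tested with limma 3.58.1 (R 4.3.3, data.table version 1.17.8), with week as a factor (4 residual degrees of freedom), or with a mean per group for single weeks and the interaction (2 residual degrees of freedom), and Benjamini-Hochberg adjustment at 0.05. For single weeks and the interaction limma used the same variance for all 133 miRNAs, pooled over them. The fit over all weeks was run on simulated data in which 30 of 133 miRNAs differed by a log2 of 1. It found 91.5% of them, with 4.35% false calls. The simulated errors were drawn independently for each miRNA and array, with no shift shared by an array, so these rates hold for that setting only. The 4 miRNAs had smaller differences over all weeks, from -0.66 to 0.16, and whether the fit finds differences of that size was not tested. The effect of the choice of scaling on false calls was not tested either. The members and lists were chosen with earlier results of these data known. Named miRNAs are the members, their star strands, the 3 most like each and list members past the threshold over all weeks. Alternatives covered scaling, floor, background, filter, week term, the methods' t-test, the replicate number as a block and leaving out each array. The precision is limited by the number of arrays. Human biopsies and cell lines were not analysed here.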

Additional observations from a re-analysis of the deposited data

Results flagged for a closer look

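The scaled log2 level of miR-378 on the CCL4 array of 4 weeks was 2.86, against 3.50 to 3.76 on the other 4 CCL4 arrays. Its gap to the nearest of them was 0.711 of the range of the 5, just over the limit of 0.71 that a Dixon test sets for 5 values. Chance marks about 1 in 20 such groups, and each of the 4 miRNAs was screened on scaled and on unscaled values. Without scaling the share of miR-378 was 0.268. The marked array was the only CCL4 array of 4 weeks, so an effect of the week and one of the array cannot be told apart. This array was also the one with the most detected miRNAs, and whether that bears on the value was not tested.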

How the results depend on the processing

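Over all weeks, the log2 differences without scaling and from the processed table, which had the same values, were 0.11 for miR-103, 0.0067 for miR-107, 0.34 for miR-378 and 0.83 for miR-33 (adjusted p = 0.00240). With normexp they were 0.022 for miR-103, -0.048 for miR-107 and 0.13 for miR-378. miR-103 and miR-107 kept their sign but missed the threshold with quantile normalization (-0.38 and -0.40), with no filter on detection (-0.56 and -0.66), with no week term (-0.50 and -0.59) and in the methods' t-test with Benjamini-Hochberg or Bonferroni adjustment (-0.50 and -0.59), as did miR-103 with the percentile over miRNAs detected on all arrays (-0.36). Leaving out each array in turn gave -0.74 to -0.43 for miR-103, -0.87 to -0.49 for miR-107, -0.53 to -0.16 for miR-378 and -0.079 to 0.33 for miR-33. Without the CCL4 array of replicate 1 of 6 weeks miR-103 was at -0.50 (adjusted p = 0.0510).

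The 18 higher and 47 lower miRNAs became 45 and 0 without scaling or in the processed table, 11 and 0 with normexp, 5 and 0 without the filter, 11 and 16 without the week term, 10 and 23 in the methods' t-test with Benjamini-Hochberg and 0 and 1 with Bonferroni adjustment. At an unadjusted p under 0.05 there were 54 and 0 without scaling, 39 and 0 with normexp, 27 and 65 without the filter and 13 and 61 in the t-test. The lower ones were 10 with the percentile over miRNAs detected on all arrays and 18 with quantile normalization. Leaving out each array gave 8 to 14 higher and 5 to 60 lower, with 7 lower without either array of 4 weeks, 5 when the control array of 6 weeks was left out and 30 without the CCL4 array of replicate 1 of 6 weeks.

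In single weeks the sign turned without scaling and in the processed table for miR-103 (0.36) and miR-107 (0.30) at 8 weeks, for miR-378 at 4 (0.11) and 6 weeks (0.23) and for miR-33 at 4 weeks (0.60). With normexp these were 0.18, 0.16, 2.3e-04, 0.078 and 0.054. miR-378 also turned at 6 weeks (0.12) and 8 weeks (-0.047) with the percentile over miRNAs detected on all arrays, and at 8 weeks with the median as scale (-0.084), quantile normalization (-0.0015) and without replicate 2 of CCL4 (-0.10). With the median as scale, miR-103 and miR-107 passed the test at 6 weeks (-0.60 and -0.66) and 8 weeks (-0.35 and -0.41). Beyond the scalings themselves, the cause of these changes was not tested.

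The replicate number as a block gave -0.67 for miR-103, -0.77 for miR-107, -0.42 for miR-378 and 0.15 for miR-33, with 12 higher and 54 lower, and changed no call of the 4. miR-378* missed the threshold with the percentile over miRNAs detected on all arrays (-0.40), with no week term or in the methods' t-test (-0.51) and with no filter (-0.60), was 0.067 without scaling and -0.0010 with normexp. With the floor set before the division the 4 kept their calls. The numbers do not pair the samples, since the treatments share only number 1, and same-numbered CCL4 arrays of 6 and 8 weeks had a correlation of deviations of 0.0508. Few arrays, 1 olive oil array a week and the low signal of miR-33 limit what can be seen.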
